A study of Mus musculus with 8 samples.

Results

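The 78 nuclear genes named as mitochondrial ribosomal proteins, here called mitoribosomal genes, were followed in pachytene spermatocytes with and without *Arid1a*. They were taken by name, as every gene of the deposited tables whose mouse symbol begins with Mrpl or Mrps and a digit, which gave 49 Mrpl and 29 Mrps symbols among 21058 genes. All 78 are annotated as protein-coding, they lie on 17 chromosomes, and 0 of them lie on the X or Y chromosome. All 78 held enough reads to be tested. The choice by name takes in *Mrps36*, whose protein is not counted as part of the ribosome, and leaves out 6 genes for ribosomal proteins with other names, which are described apart.

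The mitochondrial ribosome, or mitoribosome, translates the few mRNAs of the mitochondrial genome, whose products are subunits of the respiratory chain and of ATP synthase. Its rRNAs are made inside the organelle, but its proteins are encoded in the nucleus, made in the cytosol and imported. Some are homologues of bacterial ribosomal proteins and others are found only in mitochondria. They assemble into a small subunit, which holds the mRNA and decodes it, and a large subunit, which joins the amino acids and sits at the inner membrane.

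The RNA came from pachytene spermatocytes enriched by Sta-Put, a method that separates testis cells by their rate of sedimentation. ARID1A is a subunit of the BAF chromatin remodeler. The data hold 4 *Arid1a* WT and 4 *Arid1a* cKO libraries of adult mice. The *Arid1a* cKO males carried *Arid1a* fl/fl and 1 copy of the *Stra8-Cre* transgene, which is expressed from spermatogonia onwards, and the *Arid1a* WT males carried *Arid1a* fl/fl or *Arid1a* fl/+ without Cre, on a stock kept on the CD1 background. Both genotypes therefore carry floxed alleles, only *Arid1a* cKO carries Cre, and the study describes excision as incomplete, so that the purified fraction may still hold cells with ARID1A. Testes of several males were pooled for a purification, and the labels call the libraries biological replicates but do not say that those of a genotype came from separate purifications, so the p-values measure the spread between these samples.

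The depth was 18308688 to 22044507 estimated counts in the *Arid1a* WT libraries and 15850961 to 21626772 in the *Arid1a* cKO libraries. *Arid1a* itself, counted over the whole gene and so also over exons outside the floxed part, was at 105, 129, 121 and 98.8 CPM (counts relative to the TMM-scaled library size) in *Arid1a* WT 1 to 4 and at 76.4, 81.0, 82.9 and 78.3 CPM in *Arid1a* cKO 1 to 4, a log2 fold change of -0.51 ± 0.075 (SE, edgeR adjusted p = 2.31e-05). Of 10 pachytene spermatocyte markers, 3 were called higher and 6 lower in *Arid1a* cKO, and their summed level was 11400 to 12400 TPM in *Arid1a* WT and 9600 to 9770 TPM in *Arid1a* cKO. All 18 spermatid markers were called higher, with a summed level of 8330 to 9220 TPM against 30400 to 31800 TPM. All 9 Sertoli cell markers tested were called lower (404 to 473 TPM against 110 to 116 TPM), with *Rhox5* at 0 in every library. Of 9 Leydig and peritubular markers 2 were higher and 6 lower (84.6 to 103 TPM against 14.9 to 17.7 TPM), of 9 macrophage and blood markers 7 were higher and 1 lower (8.06 to 9.79 TPM against 13.3 to 16 TPM), of 9 spermatogonial markers 8 were higher and 1 lower (125 to 137 TPM against 135 to 145 TPM), and of 8 leptotene and zygotene markers 5 were higher and 3 lower (394 to 423 TPM against 343 to 363 TPM). Of all genes tested 74.0% were called in either direction, and the pachytene and the leptotene and zygotene markers went both ways, so that the counts of calls say little for these lists. The summed level lay apart between genotypes except for spermatogonial markers. Such sums weigh abundant markers most. *Id4* fell from a mean of 35.2 to 5.09 TPM while the other spermatogonial markers were called higher. *Spo11* fell from 108 to 16.1 TPM and *Meioc* from 148 to 52.6 TPM, while 5 of 8 leptotene and zygotene markers were called higher. The part of these cell types in the results below was not tested. In bulk libraries, fewer cells of a type and less RNA per cell cannot be told apart.

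Upstream sequence of members whose changes are described below is shown for 5 genes, because it was searched for the letters that the GA-binding protein (GABPA, an ETS factor) or nuclear respiratory factor 1 (NRF1) are known to bind, and both factors are known regulators of mitochondrial genes. Each stretch is from RefSeq promoter records of GRCm38.p6, is written 5′ to 3′ on the strand of the gene, and avoids GENCODE M21 exons and other RefSeq gene records. Capitals mark a match, on either strand, to CCGGAAG (GABPA) or to the palindromic NRF1 consensus with 1 free base. *Mrpl52* (chr14:54426759-54426908, + strand) and *Mrps27* (chr13:99344706-99344766, + strand) fell in *Arid1a* cKO, *Mrpl12* (chr11:120484463-120484612, + strand) belongs to the ribosomal stalk, and *Mrps12* (chr7:28741822-28741956, - strand) and *Mrps36* (chr13:100744660-100744809, - strand) rose.
Mrpl52: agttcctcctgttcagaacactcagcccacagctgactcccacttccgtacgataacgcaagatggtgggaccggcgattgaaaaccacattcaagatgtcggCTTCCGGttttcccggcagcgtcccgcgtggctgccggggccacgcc
Mrps27: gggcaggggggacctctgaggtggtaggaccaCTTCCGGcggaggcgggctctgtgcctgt
Mrpl12: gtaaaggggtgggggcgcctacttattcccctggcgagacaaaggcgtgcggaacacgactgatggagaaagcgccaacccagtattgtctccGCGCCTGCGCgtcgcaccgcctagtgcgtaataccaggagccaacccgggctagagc
Mrps12: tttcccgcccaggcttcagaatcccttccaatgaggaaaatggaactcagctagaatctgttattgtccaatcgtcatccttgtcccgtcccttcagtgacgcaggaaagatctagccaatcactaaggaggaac
Mrps36: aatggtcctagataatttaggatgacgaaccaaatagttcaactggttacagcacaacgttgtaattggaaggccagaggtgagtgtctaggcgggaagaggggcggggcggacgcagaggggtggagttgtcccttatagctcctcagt
The GABPA letters lie 47 bases before the start of *Mrpl52* and 48 bases before that of *Mrps27*, and the NRF1 letters lie 81 bases before that of *Mrpl12*. The stretches of *Mrps12* and *Mrps36* hold no match to these motifs, which says only that these letters are not in these windows. The promoter record of *Mrps12* does hold CCGGAAG outside the stretch shown, just after the start.

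To ask how loss of ARID1A altered these transcripts, estimated counts were compared with edgeR's quasi-likelihood test over all 17643 genes with at least 10 counts in all, and a gene was called at an adjusted p of 0.05 or less. In *Arid1a* cKO, 47 of the 78 genes were called lower and 12 higher, and 19 were not called. Among all genes tested, 37.5% were called lower, 36.5% higher and 74.0% in either direction, so a call by itself was common in this comparison, while 60.3% of the mitoribosomal genes were lower and 15.4% higher. The median log2 fold change (*Arid1a* cKO over *Arid1a* WT) was -0.31 over the 78 genes and -0.02 over all genes tested. In 40 of the 78 genes every *Arid1a* cKO library lay below every *Arid1a* WT library and in 11 every one lay above, against 34.9% and 34.0% of all genes tested. Most of the called changes stayed below 1 on the log2 scale. Of the 47 falls 33 reached 0.5 and 10 reached 1, and of the 12 rises 5 and 3 did. The shares of all genes tested that reached these sizes were not counted.

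**Figure D1:**
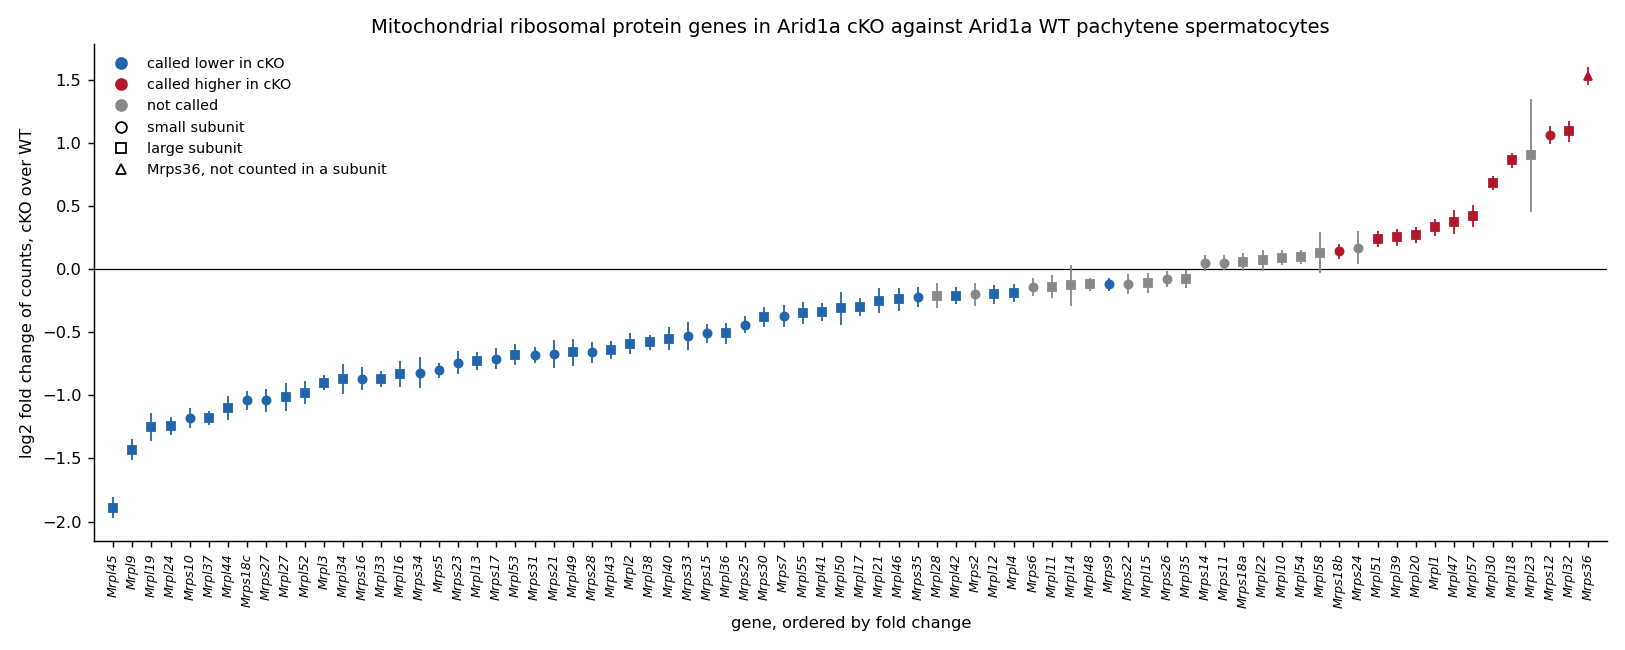
Log2 fold change of counts (*Arid1a* cKO over *Arid1a* WT, y axis) of each of the 78 genes, ordered from lowest to highest along the x axis. Points are edgeR estimates, bars are standard errors, colours give the call and shapes the subunit. The 47 genes called lower reach down to -1.89 (*Mrpl45*) and the 12 called higher reach up to 1.53 (*Mrps36*).

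In the edgeR fit each structural class held more genes called lower than higher. Of 26 small subunit genes 17 were called lower (65.4%) and 2 higher (7.69%), with a median log2 fold change of -0.47, and of 51 large subunit genes 30 were called lower (58.8%) and 9 higher (17.6%), with a median of -0.25. Genes whose product has a bacterial counterpart at the same place in the ribosome gave 26 lower (56.5%) and 7 higher (15.2%) of 46 (median -0.23). The other genes gave 21 lower (67.7%) and 4 higher (12.9%) of 31 (median -0.38), and they include *Mrps18a* and *Mrps18b*, which are related to a bacterial protein but sit elsewhere. The 4 rises of this last class (*Mrps18b*, *Mrpl51*, *Mrpl39* and *Mrpl57*) were not called under every alternative treatment of the data described below. With limma on log2(TPM + 1) only *Mrpl57* was still called higher. With TPM rescaled over the listed genes none was, and *Mrps18b* was called lower. *Mrps18b* is also among the 2 small subunit rises, and the other, *Mrps12*, was called higher under every treatment. Differences between these classes were not tested. For comparison, 83 tested genes with names of cytosolic ribosomal proteins gave 27 higher (32.5%, near the 36.5% of all genes tested) and 18 lower (21.7%, against 37.5%), with a median of 0.069, and some of them may share reads with processed pseudogenes.

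In the large subunit, the largest fall was in *Mrpl45*, whose protein lines the exit of the peptide tunnel and contacts the inner membrane (chr11:97314923-97329920, GRCm38.p6). Its counts were 47.8, 41.4, 38.1 and 48.4 CPM in *Arid1a* WT 1 to 4 and 11.1, 12.4, 11.6 and 12.3 CPM in *Arid1a* cKO 1 to 4. The groups lay far apart, with a level in *Arid1a* cKO 0.270 times that in *Arid1a* WT (log2 fold change -1.89 ± 0.085 SE, edgeR adjusted p = 5.04e-11). Only 3.60% of all genes tested had a log2 fold change at or below that of *Mrpl45*. *Mrpl44*, whose protein has a fold of the ribonuclease III family and lies near the same tunnel exit, was at 18.6, 15.9, 14.7 and 19 CPM in *Arid1a* WT and at 7.64, 8.28, 7.70 and 8.23 CPM in *Arid1a* cKO (-1.10 ± 0.093, adjusted p = 6.66e-08). *Mrpl24*, a homologue of a bacterial protein of early assembly, was the most abundant of these genes, with 129, 118, 108 and 139 CPM in *Arid1a* WT and 54.1, 51.9, 51.8 and 51.2 CPM in *Arid1a* cKO (-1.24 ± 0.070, adjusted p = 6.61e-10). In each of them every *Arid1a* cKO library was below every *Arid1a* WT library.

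Among the other homologues of bacterial large subunit proteins, *Mrpl9* (chr3:94443154-94448708) was at 31.8, 30.6, 25.9 and 33.4 CPM in *Arid1a* WT and at 10.6, 11.5, 12 and 11.1 CPM in *Arid1a* cKO (log2 fold change -1.43 ± 0.084, edgeR adjusted p = 9.84e-10). It overlaps *Oaz3*, a gene of the opposite strand, and whether the counting used strand is not given in the sources used here, so reads of the 2 genes may not be separated. *Mrpl19* was at 15.2, 16.4, 15.6 and 13.8 CPM against 5.01, 7.31, 6.6 and 6.81 CPM (-1.25 ± 0.11, adjusted p = 6.25e-08). *Mrpl27*, whose bacterial homologue reaches the site of peptide bond formation, was at 11.3, 9.56, 10.3 and 11.7 CPM against 4.20, 5.31, 5.84 and 5.91 CPM (-1.01 ± 0.11, adjusted p = 1.47e-06). *Mrpl3*, which folds next to that site, was at 43.1, 41.8, 38.4 and 44.0 CPM against 21.6, 22.8, 22.2 and 23.1 CPM (-0.90 ± 0.059, adjusted p = 3.56e-09). In none of these 4 genes did the genotypes overlap. *Mrpl27* shares 35.5% of its 31-base words with other GENCODE transcripts, so that its counts depend in part on how reads were divided.

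Of the large subunit proteins particular to mitochondria, *Mrpl37* was at 89.7, 91.1, 89.2 and 94.7 CPM in *Arid1a* WT and at 42.0, 42.8, 38.6 and 37.5 CPM in *Arid1a* cKO (log2 fold change -1.18 ± 0.054, edgeR adjusted p = 5.92e-11). *Mrpl52*, whose upstream sequence is printed above, was at 27.0, 25.3, 20.3 and 26.5 CPM against 11.9, 12.4, 12.8 and 13.4 CPM (-0.98 ± 0.090, adjusted p = 1.62e-07). Both genes separated the genotypes in all 8 libraries.

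The other large subunit genes called lower changed less. Among homologues of bacterial proteins the log2 fold changes were -0.87 for *Mrpl34*, -0.87 for *Mrpl33*, -0.83 for *Mrpl16*, -0.73 for *Mrpl13*, -0.59 for *Mrpl2*, -0.51 for *Mrpl36*, -0.35 for *Mrpl55*, -0.30 for *Mrpl17*, -0.25 for *Mrpl21* and -0.19 for *Mrpl4*. *Mrpl16*, whose homologue lies by the entry path of aminoacyl-tRNA, was at 19.8 to 26.8 CPM in *Arid1a* WT and at 13.2 to 13.4 CPM in *Arid1a* cKO. Among proteins particular to mitochondria they were -0.68 for *Mrpl53*, -0.66 for *Mrpl49*, -0.64 for *Mrpl43*, -0.58 for *Mrpl38*, -0.55 for *Mrpl40*, -0.38 for *Mrps30*, which belongs to the large subunit in spite of its symbol, -0.34 for *Mrpl41*, -0.31 for *Mrpl50*, -0.24 for *Mrpl46* and -0.21 for *Mrpl42*. The ranges of the genotypes overlapped in 6 of these 20 genes, all with a fall of 0.35 or less. The calls of *Mrpl21*, *Mrpl4*, *Mrpl42*, *Mrpl46* and *Mrpl50* were lost under DESeq2 and under an adjusted p of 0.01, those of *Mrpl4* and *Mrpl42* also with length offsets. *Mrpl53* shares 84.4% of its 31-base words with *Gm42688*, so its counts are uncertain.

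In the small subunit, *Mrps10*, a homologue of a bacterial protein of the head of that subunit, fell the most. It was at 29.4, 24.1, 28.0 and 24.6 CPM in *Arid1a* WT and at 11.6, 11.1, 12.2 and 12 CPM in *Arid1a* cKO (log2 fold change -1.18 ± 0.079, edgeR adjusted p = 4.42e-09). *Mrps27*, a pentatricopeptide repeat protein, was at 26.2, 21.5, 19.7 and 23.2 CPM against 11.3, 10.3, 10.8 and 11.8 CPM (-1.04 ± 0.089, adjusted p = 7.96e-08). Both genes had no overlap between genotypes. Of the other homologues of bacterial small subunit proteins, *Mrps16* (-0.87), *Mrps5* (-0.80), *Mrps17* (-0.71), *Mrps21* (-0.67), *Mrps28* (-0.66), *Mrps15* (-0.51), *Mrps7* (-0.37) and *Mrps9* (-0.12) were called lower. *Mrps5*, which lies at the path by which mRNA enters, was at 32.2 to 35.2 CPM in *Arid1a* WT and at 18.2 to 20.7 CPM in *Arid1a* cKO. Of those particular to mitochondria, *Mrps34* (-0.82), *Mrps23* (-0.74), *Mrps31* (-0.68), *Mrps33* (-0.53), *Mrps25* (-0.44) and *Mrps35* (-0.22) were called lower. The genotypes overlapped in *Mrps9* alone of these 14 genes, and the calls of *Mrps9* and *Mrps35* were lost under DESeq2. With length offsets *Mrps35* had a log2 fold change of -0.0025 (edgeR adjusted p = 0.99), and its level of 14.8 to 20.1 TPM in *Arid1a* WT overlapped that of 12.8 to 21.4 TPM in *Arid1a* cKO. *Mrps34* shares 35.6% of its 31-base words with *Nme3*, which overlaps it on the same strand.

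The 3 genes of the Mrps18 family, which descend from 1 bacterial protein but occupy different places in the mitoribosome, differed in their values. *Mrps18c*, the form at the bacterial position, was at 23.9, 23.6, 21 and 25.4 CPM in *Arid1a* WT and at 11.4, 10.6, 12.2 and 11.3 CPM in *Arid1a* cKO (log2 fold change -1.04 ± 0.076, edgeR adjusted p = 1.20e-08). *Mrps18b*, another small subunit protein, was at 43.2, 40.9, 38.9 and 46.9 CPM against 47.5, 48.1, 45.4 and 46.6 CPM (0.14 ± 0.060, adjusted p = 0.0466). *Mrps18a*, which sits in the large subunit despite its name, was at 32.6, 31, 30.7 and 37.9 CPM against 36.8, 33.6, 33.2 and 34.1 CPM (0.057 ± 0.071, adjusted p = 0.483). *Mrps18c* alone separated the genotypes, and the values of the other 2 overlapped and took a negative sign with limma on log2(TPM + 1). The call of *Mrps18b* was lost for library size without TMM (adjusted p = 0.421) and when any 1 library other than *Arid1a* WT 4 was left out (0.0538 to 0.116), and it turned to lower with limma on TPM rescaled over the listed genes (-0.22, adjusted p = 3.16e-04). *Mrps18c* shares 32.8% of its 31-base words with other transcripts.

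Calls differed among the genes of the flexible stalks of the large subunit, which receive translation factors and guide tRNA. These genes were not tested as a group. *Mrpl12*, the repeated protein of the factor-binding stalk, was at 47.4, 44.7, 38.4 and 50.8 CPM in *Arid1a* WT and at 39.6, 42.0, 37.5 and 38.4 CPM in *Arid1a* cKO, overlapping ranges with a small fall that passed the test (log2 fold change -0.20 ± 0.077, edgeR adjusted p = 0.0267). This call was lost under DESeq2 (adjusted p = 0.0837), with TMM factors from autosomal genes (0.0581), with length offsets (0.0505) and without *Arid1a* WT 4 (0.104), among other settings. *Mrpl10*, which anchors it, was at 21, 20.6, 20.6 and 22.7 CPM against 22.5, 21.9, 23.0 and 23.1 CPM (0.091 ± 0.059, adjusted p = 0.177). *Mrpl11*, at the base of that stalk, was at 52.4, 46.2, 39.8 and 57.0 CPM against 46.3, 43.5, 43.9 and 43.3 CPM (-0.14 ± 0.089, adjusted p = 0.161). *Mrpl10* and *Mrpl11* were not called. *Mrpl1*, the protein of the opposite stalk near the exit site for tRNA, rose from 74.8, 69.1, 63.3 and 77.9 CPM to 96.6, 86.3, 91.3 and 83.4 CPM (0.33 ± 0.068, adjusted p = 5.46e-04), without overlap in counts but not called when limma was run on log2(TPM + 1). With limma on TPM rescaled over the listed genes, *Mrpl10*, *Mrpl11* and *Mrpl12* were called lower. *Mrpl1* was not called under that scaling (-0.0041, limma adjusted p = 0.952).

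The largest rise was in *Mrps36* (chr13:100735940-100744659), whose protein was named for the ribosome but is known as a component of the 2-oxoglutarate dehydrogenase complex, so it was counted in neither subunit. It was at 10.7, 10.2, 9.08 and 10.2 CPM in *Arid1a* WT and at 30.5, 30.5, 28.1 and 26.7 CPM in *Arid1a* cKO (log2 fold change 1.53 ± 0.073, edgeR adjusted p = 9.41e-11). Of all genes tested 14.2% had a log2 fold change at or above it. *Mrps36* shares 21% of its 31-base words with other transcripts, among them the pseudogene *Mrps36-ps2*, so its counts depend in part on how reads were divided. *Mrpl32*, a protein that must be cleaved by the mitochondrial m-AAA protease before it joins the large subunit, was at 19.3, 17.8, 16.8 and 19.9 CPM against 40.4, 38.7, 33.9 and 44.1 CPM (1.09 ± 0.083, adjusted p = 1.97e-08). *Mrps12*, the homologue of the bacterial protein at the decoding centre, was at 9.25, 9.05, 8.88 and 8.23 CPM against 17.8, 18.9, 17.6 and 19.5 CPM (1.06 ± 0.071, adjusted p = 5.12e-09). All 3 rose by more than 1 on the log2 scale, with no overlap. *Spg7*, a subunit of the m-AAA protease, was at 155, 148, 145 and 164 CPM in *Arid1a* WT and at 94.6, 91.9, 90.3 and 84.6 CPM in *Arid1a* cKO (-0.76 ± 0.054, adjusted p = 8.87e-09), opposite in sign to *Mrpl32*. *Afg3l2*, another subunit of this protease, fell from a mean of 88.0 to 42.8 CPM (-1.04 ± 0.071).

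*Mrpl30* rose from 32.0, 30.2, 30.8 and 34.0 CPM to 51.8, 49.9, 49.7 and 52.3 CPM (log2 fold change 0.68 ± 0.053, edgeR adjusted p = 2.70e-08). *Mrpl47* rose by 0.37 ± 0.095 from 58.6, 44.0, 43.2 and 58.7 CPM to 69.7, 66.9, 64.1 and 63.3 CPM (edgeR adjusted p = 0.00289). *Mrpl57*, a short protein particular to mitochondria, rose by 0.42 ± 0.085 from 11.9, 10.6, 10.2 and 11.1 CPM to 16.4, 13.8, 13.4 and 15.3 CPM. These rises were without overlap, although those of *Mrpl47* and *Mrpl57* were small. *Mrpl20* (0.27 ± 0.064), *Mrpl39* (0.25 ± 0.071) and *Mrpl51* (0.24 ± 0.063) were also called higher without overlap, but of these only *Mrpl20* was called with limma on log2(TPM + 1), and all 3 took a negative sign with TPM rescaled over the listed genes, where *Mrpl57* was not called (limma log2 fold change 0.11, adjusted p = 0.278). In all, *Mrps36*, *Mrpl32*, *Mrps12*, *Mrpl30* and *Mrpl47* were called higher under the edgeR fit and each of 20 alternative treatments of the data, and 39 genes were called lower under all of them. How many of all genes tested held their call in every setting was not counted. Setting by setting, 33.8% to 43.2% of all genes tested were called lower and 27.5% to 39.7% higher.

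**Figure D2:**
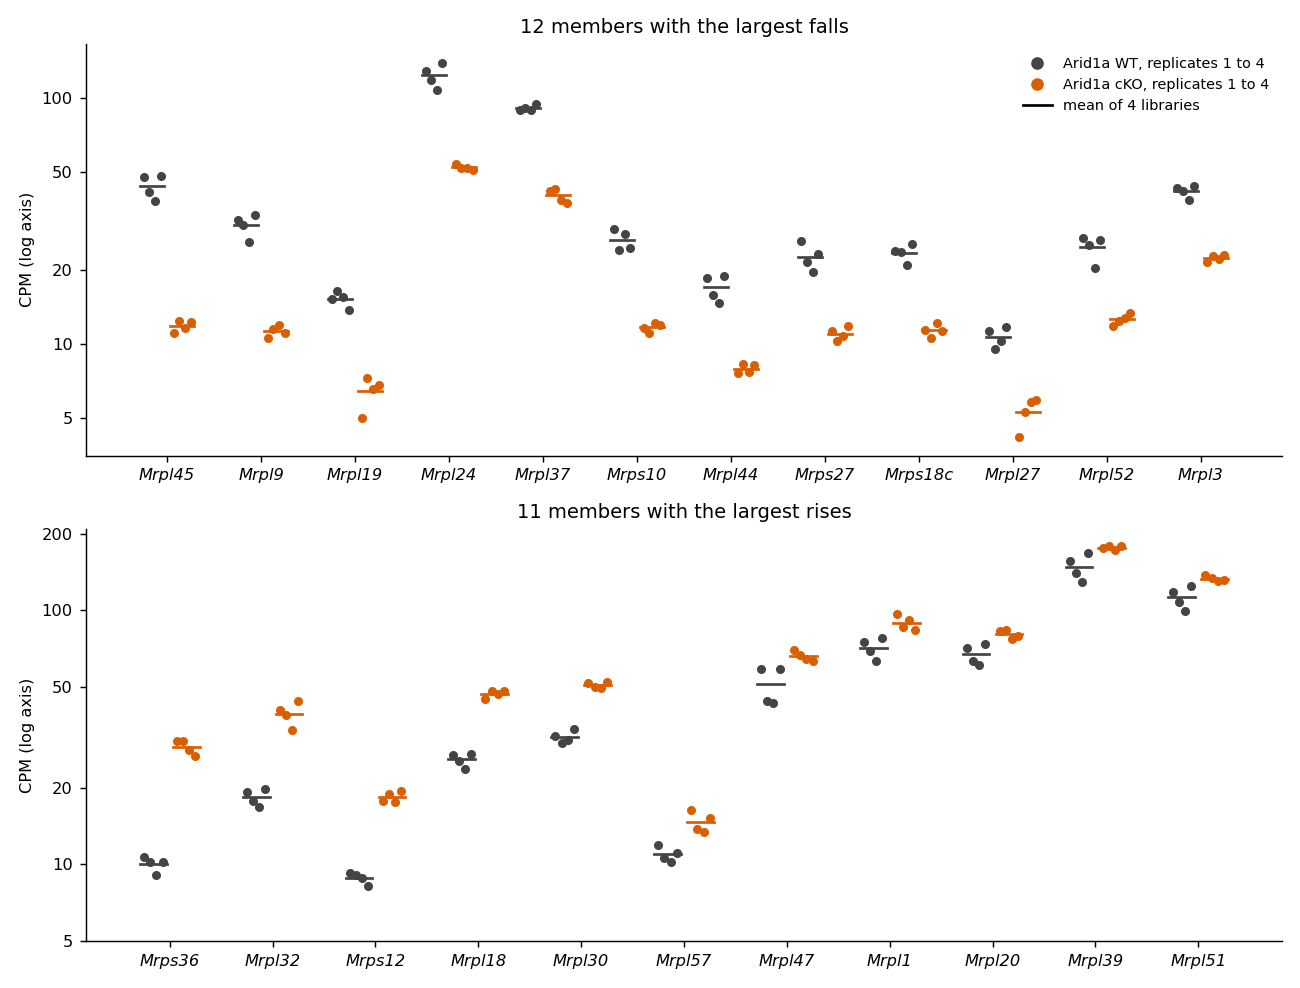
CPM (log axis) in each library for the 12 genes with the largest falls (top) and the 11 with the largest rises (bottom), ordered by size of change. Grey points are the *Arid1a* WT and orange points the *Arid1a* cKO replicates, with a line at each mean, and in each gene shown the 4 libraries of a genotype lie apart from those of the other.

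The 18 genes that were not called although their average log2 CPM reached 1 had log2 fold changes of -0.21 to 0.17. On the lower side were *Mrpl28* (-0.21), *Mrps2* (-0.20), *Mrps6* (-0.14), *Mrpl11* (-0.14), *Mrpl14* (-0.13), *Mrpl48* (-0.12), *Mrps22* (-0.12), *Mrpl15* (-0.11), *Mrps26* (-0.082) and *Mrpl35* (-0.078). On the upper side were *Mrps14* (0.051), *Mrps11* (0.051), *Mrps18a* (0.057), *Mrpl22* (0.069), *Mrpl10* (0.091), *Mrpl54* (0.093), *Mrpl58* (0.13), whose protein frees peptides from stalled ribosomes, and *Mrps24* (0.17). In 17 of the 18 the genotypes overlapped, and the exception was *Mrpl48*, at 29.9 to 31.6 CPM in *Arid1a* WT and 27.3 to 28.9 CPM in *Arid1a* cKO (edgeR adjusted p = 0.0525). Such a p does not show that the values did not differ. The 19th was *Mrpl23*, which held between 1.00 and 22.1 counts per library, too few to set a direction (log2 fold change 0.90 ± 0.45, adjusted p = 0.0887).

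Levels can be compared between genes only per length, as TPM. Mean TPM in *Arid1a* WT ran from 1.09 (*Mrpl23*) to 246 (*Mrpl54*), with a median of 44.5, and 52 of the 78 genes lay between 20 and 100 TPM. The highest were *Mrpl54* at 246 ± 11.3 TPM (SD, n = 4), *Mrpl51* at 215 ± 16.2 TPM, *Mrpl20* at 180 ± 5.76 TPM, *Mrpl24* at 174 ± 12.1 TPM and *Mrpl38*, of the family of phosphatidylethanolamine-binding proteins, at 141 ± 11.9 TPM. The lowest besides *Mrpl23* were *Mrpl50* at 5.64 ± 0.822 TPM and *Mrpl57* at 5.80 ± 0.203 TPM. Although their proteins stand in 1 particle, their transcripts thus differed over a 43.7-fold range even without *Mrpl23*. Neighbours in the order of levels overlapped among the *Arid1a* WT libraries in 71 of 77 steps, so most of the order is not resolved. *Mrpl54* differed without overlap from *Mrpl51*, and *Mrpl51* from *Mrpl20*, whereas *Mrpl20* and *Mrpl24* overlapped.

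**Figure D3:**
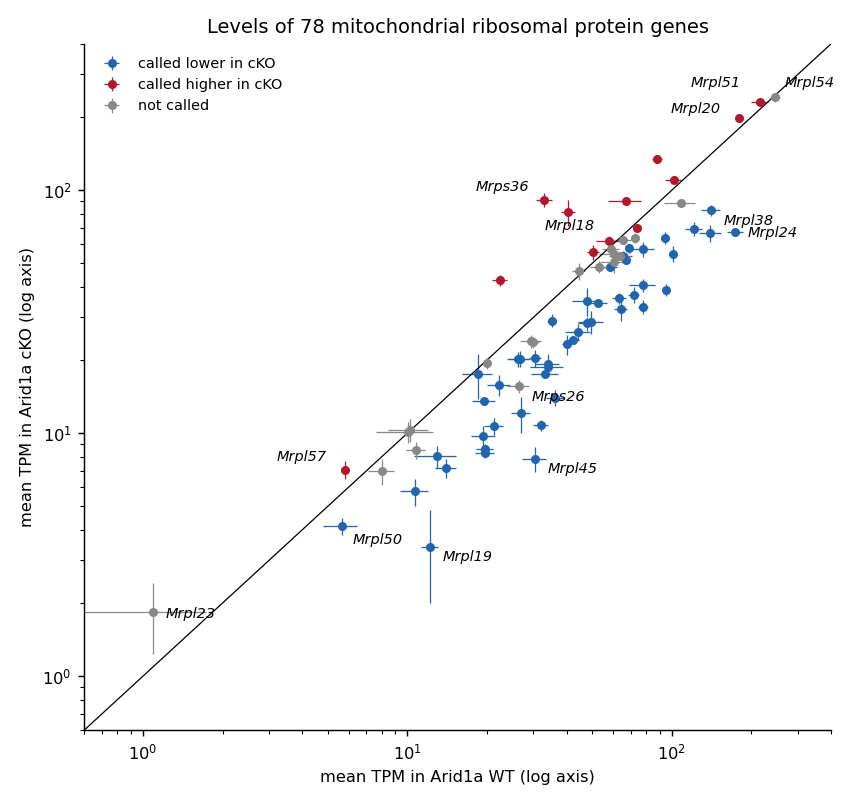
Mean TPM in *Arid1a* cKO (y axis) against mean TPM in *Arid1a* WT (x axis), both on log axes, for the 78 genes. Bars are SDs over 4 libraries, colours give the edgeR call on counts, and the line marks equal levels, with 64 of the 78 genes below it.

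In *Arid1a* cKO the median level was 32.8 TPM, and 64 of 78 genes had a lower mean TPM than in *Arid1a* WT. With limma on log2(TPM + 1), 54 of the 78 genes were called lower and 7 higher. Over all genes tested that setting called 38.2% lower and 31.6% higher, with a median log2 fold change of -0.05. *Mrpl24*, at 67.5 ± 0.974 TPM, and *Mrpl38*, at 82.8 ± 4.38 TPM (SD, n = 4), dropped from the 5 highest. Together the 78 genes took 0.439%, 0.429%, 0.409% and 0.459% of the TPM of *Arid1a* WT 1 to 4 and 0.341%, 0.353%, 0.340% and 0.349% of that of *Arid1a* cKO 1 to 4, which is 0.796 times as much. The small subunit share was 0.712 times and the large subunit share 0.803 times that in *Arid1a* WT, each without overlap of the genotypes. The genes listed in the deposited table took 78.1% to 81.1% of all TPM in *Arid1a* WT and 88.1% to 88.6% in *Arid1a* cKO, and as a share of the listed genes alone the summed level was 0.717 times that in *Arid1a* WT.

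**Figure D4:**
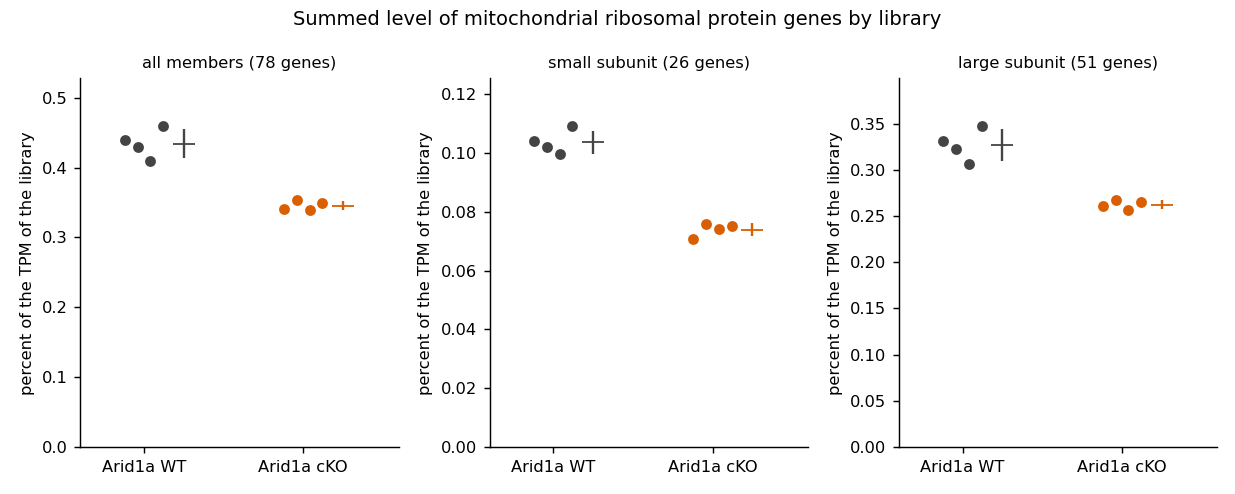
Percent of the TPM of each library taken by all 78 genes, by the 26 small subunit genes and by the 51 large subunit genes. Points are libraries, the crosses beside them are mean ± SD (n = 4), and in each panel the *Arid1a* cKO libraries lie below all *Arid1a* WT libraries.

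The *Arid1a* WT libraries varied more than the *Arid1a* cKO libraries. The median coefficient of variation of CPM was 9.76% in *Arid1a* WT and 5.39% in *Arid1a* cKO, and it was larger in *Arid1a* WT in 64 of 78 genes. The larger spread was not particular to these genes. Over all genes with at least 10 counts in a pair of libraries, counts were also compared by chi-square per degree of freedom. It was 4.38 to 18 between *Arid1a* WT libraries, largest between 3 and 4, and 1.71 to 3.45 between *Arid1a* cKO libraries. Among the 78 genes the variation was shared. *Arid1a* WT 4 was the highest *Arid1a* WT library in 59 genes and *Arid1a* WT 3 the lowest in 56, with median log2 deviations from the *Arid1a* WT mean of 0.13 and -0.14. The 4 *Arid1a* cKO libraries had medians of -0.31, -0.24, -0.34 and -0.32 on the same scale, below all 4 *Arid1a* WT libraries. Without *Arid1a* WT 4, 40 genes were called lower and 15 higher, among the latter *Mrpl10*, *Mrpl54* and *Mrps18a*, with a median log2 fold change of -0.22. That fit called 37.9% of all genes tested lower and 37.0% higher, with a median of -0.015.

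A change in which transcripts a gene uses can alter its counts through their length, and the ratio of counts to TPM gives each gene's effective length relative to other genes of its library. Of the 77 mitoribosomal genes with at least 10 counts in every library, 36 had no overlap of effective length between genotypes, against 48.7% of all such genes. In 4 the difference also reached 0.2 on the log2 scale, against 10.3% of all such genes. *Mrpl18*, a protein of the central protuberance of the large subunit, had an effective length 1.61 times as large in *Arid1a* cKO. Its counts rose from 27.0, 25.5, 23.8 and 27.3 CPM to 44.9, 48.1, 46.9 and 48.0 CPM (log2 fold change 0.86 ± 0.057, edgeR adjusted p = 4.36e-09), but its level was 58.0 ± 6.26 TPM in *Arid1a* WT and 61.8 ± 3.06 TPM in *Arid1a* cKO (SD, n = 4). With offsets for length its log2 fold change was 0.19 (edgeR adjusted p = 0.0748). *Mrpl18* overlaps *Tcp1* on the opposite strand.

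The converse held for *Mrps26*, whose effective length was 1.51 times as large in *Arid1a* cKO. Its counts were 28.2, 29.1, 27.4 and 31.5 CPM in *Arid1a* WT and 27.7, 28.1, 25.5 and 28.8 CPM in *Arid1a* cKO, while its level was 24.8, 27.9, 23.7 and 29.1 TPM against 15.5, 16.5, 16.1 and 14.4 TPM. With length offsets it was called lower (log2 fold change -0.66, edgeR adjusted p = 2.21e-05). *Mrps33* (1.19 times as long) fell in both, by 0.53 in counts and by 0.76 with length offsets. *Mrps23* was the only one of the 4 with a shorter effective length in *Arid1a* cKO (0.785 times), and its fall of 0.74 in counts was 0.37 with length offsets.

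Some of these genes start close to the start of another gene on the opposite strand. In 24 pairs, with 25 of the 78 genes (32.1%), the start of a tested gene on the opposite strand lay within 500 bases, a set chosen after the values were seen, and 10.3% of all tested genes with 1 GENCODE record had such a partner. In 16 of these pairs (66.7%) both genes were called, against 66.5% of the 881 such pairs over all tested genes. Both were called lower in 8 pairs and both higher in 2, *Mrps12* with *Sars2* and *Mrps18b* with *Ppp1r10*, the latter with the call of *Mrps18b* that was lost or turned to lower as given above. The lower pairs include *Mrpl21* with *Ighmbp2*, where the call of *Mrpl21* was among those lost under DESeq2. In 3 pairs the mitoribosomal gene fell while the partner rose (*Mrpl37* with *Cyb5rl*, *Mrpl44* with *Wdfy1*, *Mrpl2* with *Klc4*), and in 3 it rose while the partner fell (*Mrpl51* with *Ncapd2*, *Mrpl30* with *Mitd1*, *Mrpl32* with *Psma2*), of which *Mrpl51* was not called on TPM. The 10 pairs that moved the same way are 62.5% of those with both genes called, against 65.0% over all tested genes, and of 13 pairs in which both calls held in every setting 8 moved the same way. The 2 records overlap at their starts in *Mrpl27* with *Eme1*, *Mrpl21* with *Ighmbp2* and *Mrpl36* with *Ndufs6*, which all fell. They also overlap in *Mrpl44* with *Wdfy1*, *Mrpl13* with *Mtbp*, *Mrps7* with *Gga3* and *Mrpl46* with *Mrps11*. Whether the counting used strand is not given, so reads of these pairs may not be separated.

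*Mrps12* and *Sars2*, the mitochondrial seryl-tRNA synthetase, start 172 bases apart. *Sars2* was at 5.05, 5.40, 5.37 and 4.19 CPM in *Arid1a* WT and at 10.5, 9.53, 9.52 and 9 CPM in *Arid1a* cKO (log2 fold change 0.95 ± 0.10, edgeR adjusted p = 9.17e-07), a rise like that of *Mrps12*. *Mrps27* and *Ptcd2*, which starts 81 bases away, fell alike, with *Ptcd2* at 34.6, 32.4, 28.1 and 38.4 CPM against 16.7, 17.5, 17.4 and 18.4 CPM (-0.93 ± 0.086). *Mrpl32* and *Psma2*, a proteasome subunit, start 75 bases apart but moved in opposite directions, with *Psma2* at 42.6, 38.8, 36.6 and 44.1 CPM against 28.0, 27.3, 25.8 and 25 CPM (-0.61 ± 0.068, adjusted p = 1.39e-06). *Wdfy1*, the partner of *Mrpl44*, rose from 125, 116, 111 and 129 CPM to 288, 269, 279 and 264 CPM (1.19 ± 0.056, adjusted p = 7.47e-11). The records of *Mrpl44* and *Wdfy1* overlap at their starts. A shared start region thus went with like and with unlike changes in this set.

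**Figure D5:**
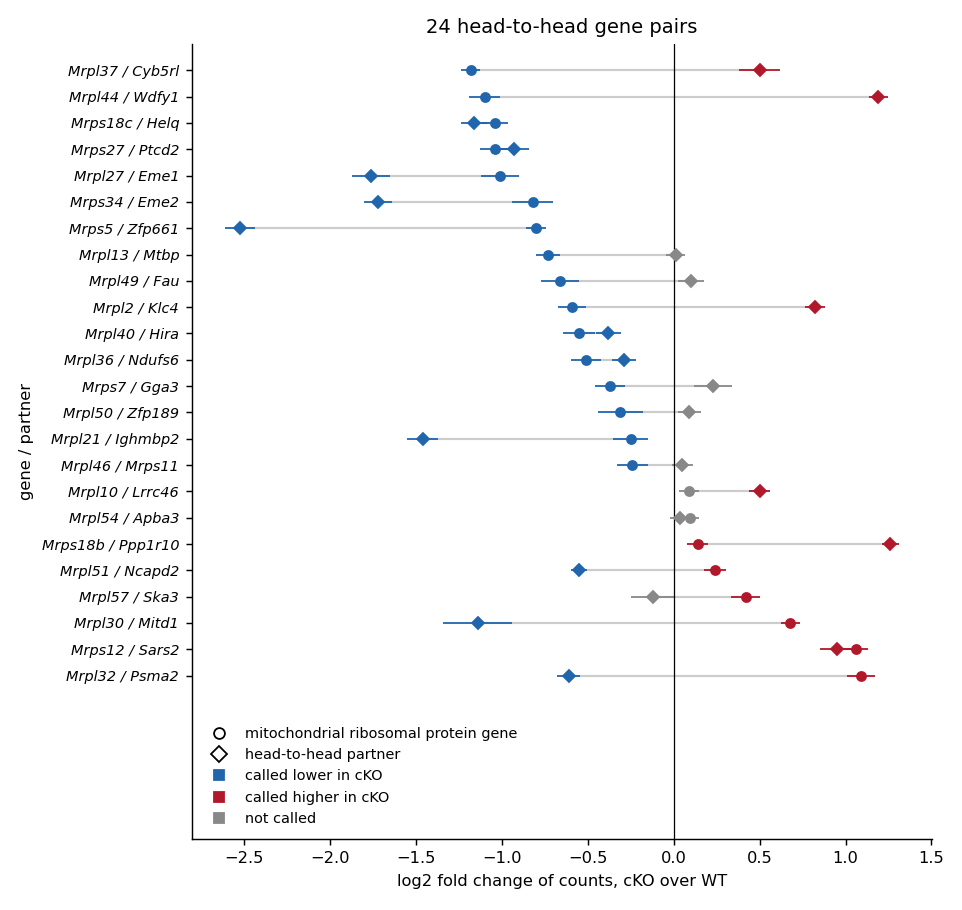
Log2 fold change of counts (x axis) of each mitoribosomal gene (circles) and of the gene that starts within 500 bases on the opposite strand (diamonds), with standard errors as bars and the call as colour. Of 16 pairs with both genes called, 10 moved in the same direction and 6 in opposite directions, as called by edgeR.

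RefSeq promoter records, of 250 bases before to 50 after a start, were at hand for 69 of the 78 genes. CCGGAAG, searched on both strands as in the sequences printed above, was found in 26 of them (37.7%), against 8.86% of all 32851 promoters and 15.7% of the tested genes. It was in 15 of 40 promoters of genes called lower, 5 of 12 of genes called higher and 6 of 17 of genes not called. In the 250 bases before the start alone it was in 18 (26.1%, against 6.91% of all promoters and 12.4% of the tested genes), and the classes gave 10 of 40, 2 of 12 and 6 of 17. The NRF1 consensus with 1 free base was found in 13 (18.8%, against 4.60% of all promoters and 8.98% of tested genes), among them 7 of 40, 4 of 12 and 2 of 17 of these classes, and the full consensus was in 3. Before the start alone the consensus with 1 free base was in 10 (14.5%, against 3.74% and 7.30%), which were 6 of 40, 4 of 12 and 0 of 17. The short YY1 motif AAGATGGC was found in 12 (17.4%, against 2.75% and 4.17%), 5 of which held its longer form, and before the start alone in 4 and 1, and the cAMP response element TGACGTCA was in 2. Matches to CCGGAAG were thus found among genes called lower, called higher and not called in either window, and some lie in start regions that 2 genes share. A match is a description of the letters and was not tested as a binding site.

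Factors known to act on nuclear genes for mitochondrial proteins were themselves measured, as 10 genes of which 4 were called lower and 3 higher, that is 40.0% and 30.0%, near the 37.5% and 36.5% of all genes tested. *Yy1* was at 102, 112, 106 and 101 CPM in *Arid1a* WT and at 32.3, 31.6, 34.7 and 32.1 CPM in *Arid1a* cKO (log2 fold change -1.69 ± 0.054, edgeR adjusted p = 1.04e-12). *Gabpa* (-0.43 ± 0.054), which binds the CCGGAAG letters, *Gabpb2* (-1.0 ± 0.14) and *Esrra* (-1.26 ± 0.39, with overlapping ranges of 0.637 to 2.11 and 0.377 to 0.914 CPM) were also lower. *Nrf1* was called higher by 0.16 ± 0.066 with overlapping ranges of 19.1 to 22.7 and 22.1 to 24.4 CPM, *Pprc1* by 0.48 ± 0.087 and *Ppargc1b*, at 1.29 CPM or less, by 0.73 ± 0.26. These 3 rises were not stable. That of *Nrf1* was not called for library size without TMM (0.065, edgeR adjusted p = 0.366), that of *Ppargc1b* was not called by DESeq2 (adjusted p = 0.055), and that of *Pprc1* was not called with length offsets (0.34, edgeR adjusted p = 0.0998). No relation between these factors and the mitoribosomal genes was tested.

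The other genes of mitochondrial translation, from lists put together by function, are given here beside the 37.5% lower and 36.5% higher among all genes tested. Of 6 mitoribosomal protein genes with other names 5 were called lower (83.3%) and 0 higher, with a median log2 fold change of -0.63. *Ptcd3*, which lies at the mRNA channel, was at 77.4, 77.0, 77.5 and 76.7 CPM in *Arid1a* WT and at 37.5, 34.0, 36.0 and 34.3 CPM in *Arid1a* cKO (-1.12 ± 0.048, edgeR adjusted p = 3.04e-11). *Chchd1* (-0.73 ± 0.064) and *Ndufab1* (-0.73 ± 0.051), the mitochondrial acyl carrier protein, were each lower without overlap. *Dap3*, a GTP-binding protein of the small subunit, was not called (-0.18 ± 0.079, adjusted p = 0.054).

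Of 16 genes for translation factors and related enzymes 11 were called lower (68.8%) and 1 higher (6.25%), with a median of -0.93. The 2 initiation factors were among the largest falls, with *Mtif3* at 61.1, 55.7, 56.9 and 67.6 CPM against 13.9, 15.4, 13.3 and 14.1 CPM (log2 fold change -2.09 ± 0.074, edgeR adjusted p = 3.44e-12) and *Mtif2* at 38.7, 38.9, 38.3 and 37.4 CPM against 12.3, 11.2, 11.9 and 11.8 CPM (-1.70 ± 0.057, adjusted p = 1.83e-12). *Gatb*, of the enzyme that completes glutaminyl-tRNA, fell by 1.28 ± 0.083. The 1 gene that rose was *Mrrf*, the ribosome recycling factor, at 27.5, 22.5, 21.5 and 31.8 CPM against 47.0, 44.6, 43.2 and 40.7 CPM (0.77 ± 0.10, adjusted p = 9.30e-06).

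Of 17 mitochondrial tRNA synthetase genes 10 were called lower (58.8%) and 3 higher (17.6%), with a median of -0.36, with the largest falls in *Hars2* (-1.53 ± 0.081), *Tars2* (-1.38 ± 0.058) and the weakly expressed *Pars2* (-1.32 ± 0.25), and with rises in *Cars2* (1.24 ± 0.11), *Sars2* and *Wars2* (0.59 ± 0.16). Of 27 genes for assembly of the mitoribosome 21 were called lower (77.8%) and 5 higher (18.5%), with a median of -0.76. The RNA helicase *Ddx28* was at 19.2, 19, 14.2 and 20.4 CPM against 3.44, 3.77, 3.25 and 3.73 CPM (log2 fold change -2.36, edgeR adjusted p = 2.22e-10). *Mettl17* (-2.22) and *Rcc1l* (-2.03) were next. Rises were largest in *Nsun4*, an rRNA methyltransferase, at 47.9, 53.5, 60.2 and 45.3 CPM against 203, 211, 224 and 214 CPM (2.04 ± 0.076, adjusted p = 6.19e-12), then in *Fastkd2* (1.19 ± 0.054) and *Mrm3* (0.64 ± 0.16). *Mterf4*, the partner protein of NSUN4, fell by 0.98 ± 0.080.

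Of 13 genes for mitochondrial transcription and RNA processing 7 were called lower (53.8%) and 5 higher (38.5%), with a median of -0.28 and a share of rises near that over all genes tested. *Polrmt*, the mitochondrial RNA polymerase, fell by 0.87 ± 0.058, *Pnpt1* by 1.45 ± 0.087 and *Elac2* by 1.24 ± 0.083, while *Tfam*, which packages mitochondrial DNA and starts its transcription, was at 26.3, 24.7, 28.6 and 25.2 CPM in *Arid1a* WT and at 95.3, 92.7, 95.5 and 96.1 CPM in *Arid1a* cKO (log2 fold change 1.86 ± 0.054, edgeR adjusted p = 4.06e-13). *Trmt10c* (1.00 ± 0.077) and *Supv3l1* (0.56 ± 0.061) rose as well, the latter not called with limma on rescaled TPM (0.20, adjusted p = 0.225). The mRNAs of the mitochondrial genome itself, which the mitoribosome translates, were not analysed here.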

How the data were processed

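RNA-seq of Sta-Put purified pachytene spermatocytes was compared between 4 *Arid1a* WT and 4 *Arid1a* cKO libraries, grouped by the genotype and number in their labels. Per the methods, the authors ran Salmon, took transcripts of the mm10 annotation to Entrez genes by means of tximport and deposited, per gene, estimated counts without scaling for depth or length and TPM scaled to the whole library. Their table of log2 fold changes and p-values of differential expression was not used.

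Symbols and positions came from RefSeq GRCm38.p6 (21036 of 21058 genes matched), and overlaps, exons and shared 31-base words from GENCODE M21. Estimated counts were rounded to whole numbers, where whole counts had been planned. Genes with at least 10 counts over 8 libraries were tested with edgeR 4.0.16 (quasi-likelihood F test after TMM scaling, with genotype alone in the model, R 4.3.3), and calls were made at an adjusted p of 0.05 (Benjamini-Hochberg). The standard error was the log2 fold change over the square root of F. Effective lengths were the ratio of counts to TPM. Scripts were tested on simulated counts. Libraries held 15850961 to 22044507 counts.

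The genes named were *Arid1a*, the members with the 5 highest and 3 lowest TPM in *Arid1a* WT, up to 12 largest falls and rises called without overlap at an average log2 CPM of at least 1, all members not called at that level, the Mrps18 and stalk genes, *Mrps36*, and the 3 largest falls and rises of each functional list. Head-to-head pairs, effective lengths and other genes named (*Spg7*, *Afg3l2*, *Mterf4*, *Dap3*, the other members given only by value, and marker genes) were chosen after their values were seen. The members and lists were chosen with earlier results of these data known. The alternatives were DESeq2 1.42.0, other size factors and filters, length offsets, limma 3.58.1 on log2(TPM + 1) and log2(TPM + 0.1), a stricter adjusted p, a replicate block and each library left out in turn, and TPM rescaled over the listed genes was added after seeing the data. Python 3.11.15, pandas 2.3.3 and matplotlib 3.10.9 were used for tables and figures.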

Additional observations from a re-analysis of the deposited data

Results flagged for a closer look

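In 96 sets of 4 libraries (the named members and the summed shares, by genotype), a library that stood far from the other 3 by Dixon's test at the 95% level was looked for. It was found in 4 sets, where chance gives about 1 in 20, or 4.8. *Mrpl23* was at 0.0457 CPM in *Arid1a* WT 2, which is 1.00 count, against 0.495 to 0.552 CPM in the other *Arid1a* WT libraries. *Mrps2* was at 12.3 CPM in *Arid1a* WT 3 against 15.0 to 15.5 CPM. *Mrpl14* was at 2.97 CPM in *Arid1a* cKO 2 against 2.25 to 2.30 CPM. *Mrps22* was at 45.6 CPM in *Arid1a* cKO 1 against 41.3 to 41.7 CPM. None of the 4 genes was called between genotypes in edgeR's test on all 8 libraries. Without *Arid1a* WT 3, *Mrps2* and *Mrps22* were called lower, as was *Mrps2* without *Arid1a* cKO 4.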

How the results depend on the processing

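The 47 falls and 12 rises called by edgeR became 39 to 56 and 10 to 12 under the other count fits. Those fits, with the stricter adjusted p among them, called 33.8% to 41.3% of all genes tested lower and 32.3% to 39.7% higher. Under all 21 settings 39 falls and 5 rises held, and the same count over all genes tested was not made. On TPM, limma called 54 members lower and 7 higher with log2(TPM + 1), and also 54 and 7 with log2(TPM + 0.1). With log2(TPM + 0.1) the median log2 fold change of the members was -0.44. With TPM rescaled over the listed genes the calls were 62 lower and 5 higher (7.46% of calls were rises, against 20.3% with edgeR), with a median of -0.56. Under that scaling 43.2% of all genes tested were called lower and 27.5% higher, against 37.5% and 36.5% with edgeR. The median over all genes tested was -0.13 under that scaling, -0.12 for library size without TMM and -0.10 for log2(TPM + 0.1), and relative to it the members' median was -0.43, -0.29 and -0.34, against -0.29 in the main fit. The summed share became 0.717 times that in *Arid1a* WT over the listed genes. Leaving out 1 library gave 11 to 15 rises, 40 to 51 falls and medians of -0.34 to -0.22. Over all genes tested, these fits called 35.1% to 37.2% higher and 36.4% to 37.9% lower. In the 250 bases before the start the short YY1 motif was in 4 promoters and the long one in 1.

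The sign turned in 34 values of single genes. For library size without TMM the log2 fold changes were -0.0037 for *Mrpl54*, -0.047 for *Mrps14*, -0.046 for *Mrps11*, -0.040 for *Mrps18a*, -0.027 for *Mrpl22* and -0.0064 for *Mrpl10*. With length offsets *Mrps11* was at -0.089. With log2(TPM + 1) and log2(TPM + 0.1), in this order, values were -0.031 and -0.031 for *Mrpl54*, -0.18 and -0.18 for *Mrps11*, -0.062 and -0.063 for *Mrps18a*, -0.032 and -0.033 for *Mrpl22*, -0.045 and -0.047 for *Mrpl10*, and -0.075 and -0.076 for *Mrps18b*. With rescaled TPM they were -0.18 for *Mrpl54*, -0.042 for *Mrpl51*, -0.011 for *Mrpl20*, -0.053 for *Mrpl18*, -0.0041 for *Mrpl1*, -0.043 for *Mrpl39*, -0.087 for *Mrps14*, -0.33 for *Mrps11*, -0.21 for *Mrps18a*, -0.18 for *Mrpl22*, -0.19 for *Mrpl10*, -0.12 for *Mrpl58*, -0.13 for *Mrps24* and -0.22 for *Mrps18b*. With 1 library left out *Mrpl22* was at -0.0039 (without *Arid1a* WT 3) to 0.15 (without *Arid1a* WT 4). The cause was not tested.

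Same-numbered libraries of the 2 genotypes deviated with correlations of 0.0328, 0.0349, 0.0357 and -0.0299, so the numbers were not taken to pair the samples, and a fit with the replicate number as a block called 12 genes higher and 46 lower, with a median of -0.30. Depth limited *Mrpl23*, at up to 22.1 counts per library. Overlapping genes (23 members) and shared words (over 20% in 7 members) can move reads between genes, and the strand setting was not given in the sources used here.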
